A study of Mus musculus with 8 samples.

Results

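A set of 34 genes that carry glucose into the cell, break it down to pyruvate and move carbon on to lactate or to acetyl-CoA was compared between LLC1 and MLE12 mouse cells. They are the 34 of the 43346 genes of the deposited table whose name is on a pathway list of transporters, glycolytic enzymes and regulators. That list was chosen with earlier results of these data known. Where a name was repeated the entry with more counts was taken. All 34 were counted in every library and passed the filter on low counts. LLC1 is the Lewis lung carcinoma line, and MLE12 is a lung epithelial line derived from a tumour of a transgenic mouse in which the surfactant protein C promoter drove the SV40 large T antigen. Both were left untreated and grown to about 80% confluence, and each was measured in 4 RNA sequencing libraries, so that the contrast is between 2 established lines and not between a tumour and normal lung. Separate cultures for the 4 libraries are not stated in the labels, so the p-values cover the spread among these 8 samples alone, and that spread may be technical.

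Glycolysis splits glucose into pyruvate in a chain of 10 enzyme steps, of which those of hexokinase, phosphofructokinase and pyruvate kinase are the main points of control. Pyruvate is either reduced to lactate by lactate dehydrogenase and exported, or oxidised in mitochondria by the pyruvate dehydrogenase complex, which pyruvate dehydrogenase kinases switch off. Many steps are shared among isozymes encoded by separate genes with different tissue distribution and regulation, and cultured tumour cells are known for high uptake of glucose and release of lactate. In the lung, alveolar epithelial cells also use glucose to make surfactant lipid.

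The LLC1 libraries held 46.8 to 55.3 M counts and the MLE12 libraries 48.6 to 76.7 M, so that a count of 0 would allow at most 3 counts, or 0.0381 to 0.0693 counts per scaled M counts (CPM), for counting error only. This limit takes counts as independent and would be higher if both mates of a fragment were counted. The lung regulator Nkx2-1 averaged 0.664 ± 0.109 CPM in LLC1, against 146.6 ± 6.39 CPM in MLE12, and the epithelial cadherin Cdh1 0.553 ± 0.047 CPM in LLC1, against 153.9 ± 3.05 CPM in MLE12 (SD, n = 4 each). Of the 7 lung epithelial markers 2 were higher and 5 lower in LLC1. The keratin gene Krt18 went against the label of MLE12, with 292.8 ± 9.03 CPM in LLC1, against 0.930 ± 0.315 CPM in MLE12. Of the 5 mesenchymal markers, Vim, Col3a1 and Acta2 were higher and Cdh2 and Col1a1 lower in LLC1. Of 9 blood, endothelial and erythroid markers 3 passed the filter. Cd68 was higher in LLC1 (8.37 ± 0.332 CPM, against 2.17 ± 0.235 CPM in MLE12). Hba-a1 was lower (0.0098 ± 0.0114 CPM, against 0.284 ± 0.0537 CPM in MLE12), and Pecam1 was not called. Ptprc had 0 counts in the LLC1 libraries and 2 counts in the MLE12 libraries. Of all genes tested 40.7% were higher and 40.9% lower in LLC1. In bulk RNA a lower level per cell and fewer cells that hold a transcript cannot be told apart.

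Summed over the 34 genes, the transcripts took a larger share of the LLC1 libraries. The 34 genes together held 1.07, 1.14, 1.23 and 1.25% of all counts in the LLC1 libraries, against 0.581, 0.573, 0.582 and 0.555% in the MLE12 libraries. The lines did not overlap in this share. Genes with many counts weigh most in it. Pkm had 799402 counts over the LLC1 libraries and 508999 over the MLE12 libraries, and Ldha 320205 in LLC1 and 175442 in MLE12. In the quasi-likelihood test of edgeR, with p-values adjusted over all 18546 genes tested and called under 0.05, 22 of the 34 were higher in LLC1, where 40.7% of all genes tested were higher. Another 10 were lower, where 40.9% of all genes were lower, and Pfkm and Pdhb were not called. In either direction 81.6% of all genes tested were called.

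Tested against a fold change of 2, 12 of the 34 genes were higher and 5 lower in LLC1, where 16.7% of all genes were higher and 16.9% lower by this rule. The 12 were Slc2a1, Slc2a3, Hk2, Gpi1, Pfkl, Gapdh, Eno1, Eno2, Pkm, Ldha, Slc16a3 and Pdk1, and the 5 were Aldoc, Eno3, Pdk2, Pdk3 and Pdk4. Near the limit, Gpi1 was not past 2-fold without LLC1 replicate 4 (adjusted p = 0.053 against 2-fold), Pdk3 was not without LLC1 replicate 1 (adjusted p = 0.105), Aldoa was past it without LLC1 replicate 1 (adjusted p = 0.0359), and Gpi1 and Pkm were not with library totals alone. The median log2 fold change, LLC1 over MLE12, was 0.92 over the 34 genes and 0.02 over all genes tested. The libraries of the lines did not overlap for 32 of the 34, against 76.3% of all genes tested. Pfkm and Pdhb were the genes that overlapped. The plot of log2 fold changes in pathway order shows the whole list.

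**Figure D1:**
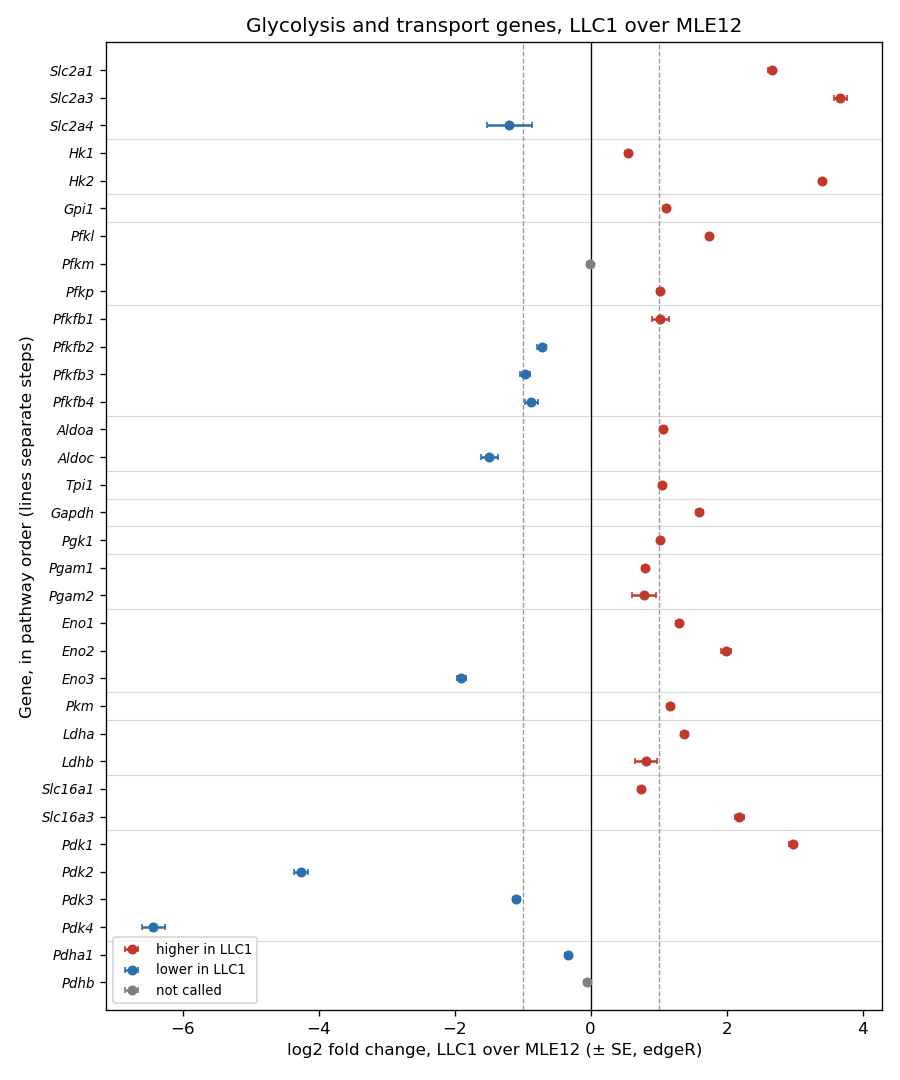
Log2 fold change of each of the 34 genes, LLC1 over MLE12, with its standard error from edgeR (x axis); genes run down the page in pathway order and grey lines separate the steps. Red points are higher in LLC1, blue points lower and grey points not called; dashed lines mark a fold change of 2. The enzyme steps from Gpi1 to Pkm that have a single gene among the 34 lie between 1.03 and 1.60, while the kinase genes Pdk1 to Pdk4 span 2.97 to -6.43.

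The upstream sequences of 5 of these genes are shown: Hk2, Ldha and Pgk1 as enzymes higher in LLC1, and Pdk1 and Pdk2 as kinase genes that went opposite ways. They do not cover the whole range of log2 fold changes, since Pdk4, the lowest at -6.43, is not among them. Each is the 250 bases before a transcription start in RefSeq on build GRCm38.p6, read on the strand of the gene, and none overlaps an exon annotated for its gene in GENCODE M21. They are Hk2 at chr6:82774455-82774704 (minus strand), Pgk1 at chrX:106186850-106187099 (plus), Ldha at chr7:46845554-46845803 (plus), Pdk1 at chr2:71872974-71873223 (plus) and Pdk2 at chr11:95041372-95041621 (minus). The windows of Hk2, Pgk1 and Pdk1 end at the deposited 5′ end of the gene and that of Pdk2 lies 17 bases from it. That of Ldha precedes a start 4329 bases from the deposited 5′ end. Capitals mark every match of ACGTG on either strand, which reads CACGT when it lies on the other strand and CACGTG where the matches of both strands overlap.
Hk2: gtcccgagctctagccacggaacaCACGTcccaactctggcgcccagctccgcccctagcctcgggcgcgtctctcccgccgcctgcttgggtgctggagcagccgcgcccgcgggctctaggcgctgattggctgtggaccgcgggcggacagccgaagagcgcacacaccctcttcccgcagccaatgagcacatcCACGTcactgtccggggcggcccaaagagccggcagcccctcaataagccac
Pgk1: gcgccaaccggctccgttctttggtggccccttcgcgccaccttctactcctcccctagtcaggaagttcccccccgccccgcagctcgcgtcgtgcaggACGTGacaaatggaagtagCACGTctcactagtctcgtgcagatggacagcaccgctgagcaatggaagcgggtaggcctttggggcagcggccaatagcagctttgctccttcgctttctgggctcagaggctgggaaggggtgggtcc
Ldha: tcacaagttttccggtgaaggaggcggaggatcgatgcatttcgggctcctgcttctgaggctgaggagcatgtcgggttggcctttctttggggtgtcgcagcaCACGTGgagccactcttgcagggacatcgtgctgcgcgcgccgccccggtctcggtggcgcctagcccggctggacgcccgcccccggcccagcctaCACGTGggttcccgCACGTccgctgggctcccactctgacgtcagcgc
Pdk1: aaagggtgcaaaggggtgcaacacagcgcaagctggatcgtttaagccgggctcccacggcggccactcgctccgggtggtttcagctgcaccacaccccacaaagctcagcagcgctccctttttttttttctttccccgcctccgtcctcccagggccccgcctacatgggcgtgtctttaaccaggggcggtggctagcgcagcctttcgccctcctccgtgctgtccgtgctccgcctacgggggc
Pdk2: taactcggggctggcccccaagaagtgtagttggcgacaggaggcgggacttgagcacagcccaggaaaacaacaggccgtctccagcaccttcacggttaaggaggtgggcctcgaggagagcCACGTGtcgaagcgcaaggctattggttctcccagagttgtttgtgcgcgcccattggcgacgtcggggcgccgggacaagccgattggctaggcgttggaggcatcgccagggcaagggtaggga
ACGTG is the core of the element that hypoxia-inducible factors bind, and CACGTG is the E-box core that Myc and the carbohydrate-response factors can bind. The stretches held 2 matches for Hk2, 2 for Pgk1, 5 for Ldha, 0 for Pdk1 and 2 for Pdk2, where the 2 strands of CACGTG count as 2. The window shown for each gene is the one nearest to its deposited 5′ end. Ldha, Pdk1 and Pdk2 each have a further RefSeq start, and ACGTG was in none of those 3 windows. The window of Pdk4, not shown, held no ACGTG either. Over windows of 300 bases (250 before and 50 after the start), 22 of the 51 windows of the 32 genes found in the RefSeq table held ACGTG (43.1%), against 19.6% of all 32851 windows, and several windows of a gene overlap each other. By gene, 11 of 21 higher, 5 of 9 lower and 2 of 2 uncalled members had it, against 21.8% of all 27025 genes. CACGTG was in 6 of the 51 windows (11.8%) and in 7.2% of all windows. The motif was thus found in genes of both directions, and a match is a description of letters and not a site of binding. Slc2a3 and Slc2a4 had no entry in the table.

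Glucose uptake is carried by facilitative transporters, and the summed transcript level of the 3 transporter genes was the step that differed most. Per kilobase of deposited gene length it was 73.3 ± 5.78 CPM in LLC1, against 11.6 ± 0.565 CPM in MLE12 (SD, n = 4 each), a ratio of 6.32. Slc2a1 (chr4:119108711-119137330, mm10, as for all coordinates of genes), the basal transporter GLUT1, had 183.9, 193.3, 215.1 and 216.3 CPM in LLC1, against 32.4, 32.8, 32.8 and 29.7 CPM in MLE12. Every LLC1 library lay above every MLE12 library, and the log2 fold change was 2.66 ± 0.06 (SE; adjusted p = 1.3e-18). Slc2a3, the high-affinity transporter GLUT3 known from neurons, had 16.8, 16.5, 18.1 and 17.7 CPM in LLC1, against 1.41, 1.5, 1.18 and 1.32 CPM in MLE12. Its log2 fold change of 3.67 ± 0.10 was the largest positive one among the 34 genes (adjusted p = 1.8e-17). Slc2a4, the insulin-responsive transporter of muscle and fat, was near the limit of detection, with 65 counts over the LLC1 libraries and 216 over the MLE12 libraries. It averaged 0.326 ± 0.161 CPM in LLC1, against 0.750 ± 0.145 CPM in MLE12. Its log2 fold change of -1.20 ± 0.33 was called (adjusted p = 0.0026) but did not pass the test against a fold change of 2. Slc2a1 nevertheless made up 96.6 ± 0.111% of the summed level in LLC1 and 96.5 ± 0.309% in MLE12, and its share overlapped between the lines.

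Hexokinase traps glucose by phosphorylation, and Hk2 had the largest log2 fold change of the 17 genes of the enzyme chain. Hk2, the inducible isozyme of muscle and many tumours (chr6:82725025-82774454; its upstream sequence is given above), had 139.6, 144.6, 143.6 and 135.9 CPM in LLC1, against 13.2, 12.8, 13.4 and 13.9 CPM in MLE12. The groups were far apart, the log2 fold change being 3.41 ± 0.05 (adjusted p = 1.4e-21). Hk1, the widely expressed isozyme, had 122.9, 130.5, 136.7 and 134.1 CPM in LLC1, against 89.8, 90.9, 93.0 and 83.3 CPM in MLE12. These groups did not overlap either, although the log2 fold change was only 0.55 ± 0.05 (adjusted p = 1.8e-09) and did not pass 2-fold. Per kilobase, Hk2 made up 60.6 ± 1.23% of the hexokinase transcripts in LLC1 and 17.6 ± 1.11% in MLE12. With the length of the longest principal transcript in place of the deposited length these shares were 42.9% in LLC1 and 9.45% in MLE12, so which isozyme leads in LLC1 depends on the length used, while the difference between the lines does not. Transcripts of Hk1os, which shares 157 exonic bases with Hk1, cannot be separated from Hk1 where the counting strand is not stated.

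**Figure D2:**
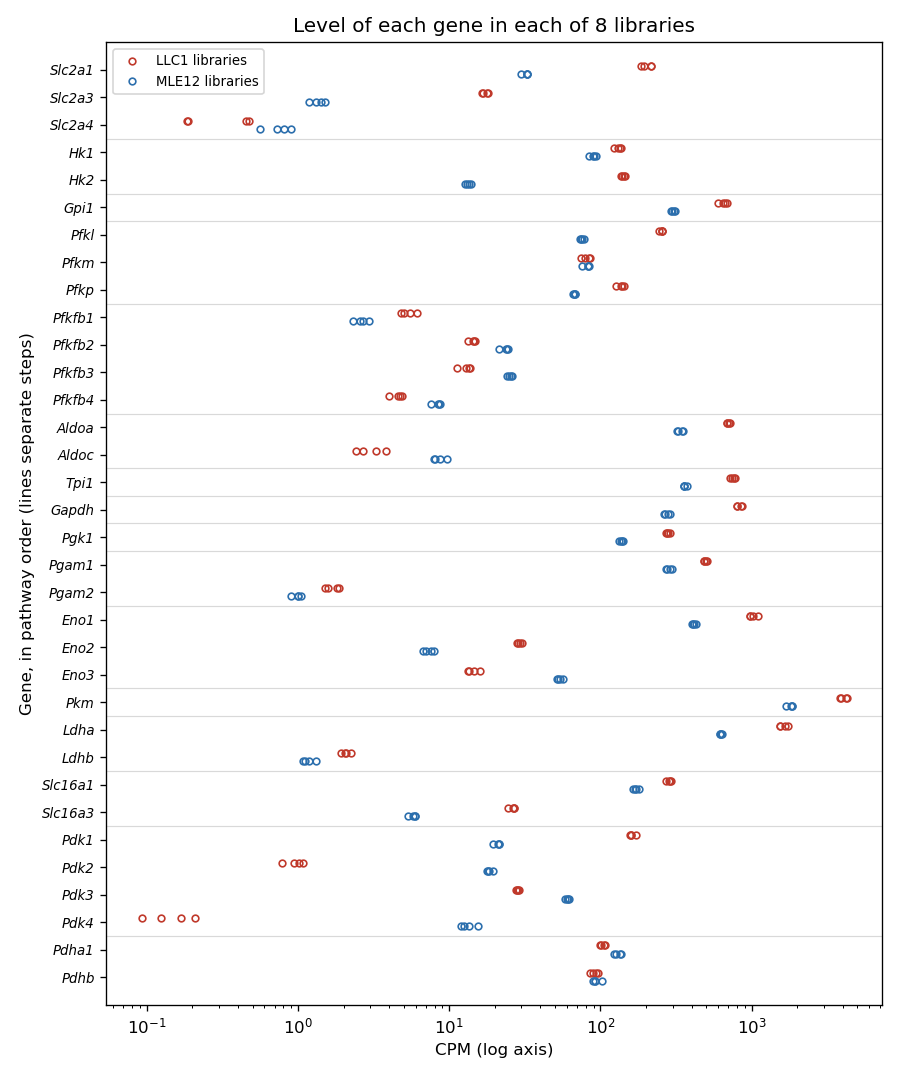
Level of each of the 34 genes in each of the 8 libraries, in CPM on a log axis, with genes in pathway order down the page and LLC1 (red) drawn above MLE12 (blue). The libraries of a line lie close together for most genes. The lines overlap for Pfkm and Pdhb alone, and the widest gaps are those of Pdk4, Pdk2, Slc2a3 and Hk2.

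Glucose-6-phosphate isomerase and phosphofructokinase-1 follow in the chain. Gpi1, which turns glucose 6-phosphate into fructose 6-phosphate, had 596.5, 649.4, 670.7 and 686.7 CPM in LLC1, against 307.8, 298.5, 311.0 and 292.1 CPM in MLE12. The log2 fold change was 1.11 ± 0.05 (adjusted p = 3.9e-14), and the gene shares 741 exonic bases with Gm26762. Phosphofructokinase-1, the committing step, had its 3 isozyme genes behave in 3 ways. Pfkl, the liver-type subunit (chr10:77986947-78010083), had 243.7, 256.8, 254.2 and 253.9 CPM in LLC1, against 78.1, 73.8, 75.9 and 72.7 CPM in MLE12. It was separated without overlap, the log2 fold change being 1.75 ± 0.04 (adjusted p = 4.1e-18). Pfkp, the platelet-type subunit, had 126.9, 138.4, 136.1 and 143.4 CPM in LLC1, against 67.1, 67.6, 68.0 and 65.6 CPM in MLE12. The log2 fold change was 1.02 ± 0.04 (adjusted p = 5.6e-14), without passing 2-fold, and Pfkp shares 748 exonic bases with Pitrm1. Pfkm, the muscle-type subunit, had 74.8, 79.0, 83.3 and 84.9 CPM in LLC1, against 83.8, 83.0, 82.5 and 75.2 CPM in MLE12. The lines overlapped, and the log2 fold change was -0.01 ± 0.05 (adjusted p = 0.844).

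With Pfkm at overlapping levels and Pfkl apart, the make-up of phosphofructokinase-1 transcripts differed between the lines. Per kilobase, Pfkl made up 57.9 ± 0.934% in LLC1 and 33.1 ± 0.661% in MLE12, and Pfkm 27.5 ± 0.774% in LLC1 and 53.1 ± 0.837% in MLE12. The share of Pfkp differed by less, 14.6 ± 0.310% in LLC1 and 13.8 ± 0.347% in MLE12, without overlap; with the principal transcript length it was 25.6% in LLC1 and 25.1% in MLE12. The ratio of Pfkl to Pfkm per kilobase was 2.19, 2.19, 2.05 and 2.01 in the LLC1 libraries, against 0.627, 0.598, 0.619 and 0.651 in the MLE12 libraries. The summed level of the step was 99.1 ± 3.32 CPM per kilobase in LLC1 and 51.7 ± 1.89 CPM per kilobase in MLE12.

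The PFKFB enzymes make and degrade fructose 2,6-bisphosphate, the strongest activator of phosphofructokinase-1, and their transcripts ran against the rest of the upper chain. Their summed level was 6.36 ± 0.314 CPM per kilobase in LLC1 and 9.70 ± 0.424 CPM per kilobase in MLE12, a ratio of 0.655, with no overlap between libraries. With the principal transcript length the levels were 10.4 CPM per kilobase in LLC1 and 14.6 CPM per kilobase in MLE12. Pfkfb3, the isozyme with the most kinase activity, had 11.2, 13.7, 12.9 and 13.5 CPM in LLC1, against 25.6, 24.1, 26.0 and 24.7 CPM in MLE12. Pfkfb2, the heart-type isozyme, had 13.3, 14.8, 14.3 and 14.5 CPM in LLC1, against 23.6, 24.1, 24.6 and 21.5 CPM in MLE12. Both were lower in every LLC1 library, with log2 fold changes of -0.97 ± 0.07 for Pfkfb3 (adjusted p = 1.1e-10) and -0.72 ± 0.06 for Pfkfb2 (adjusted p = 3.8e-09). Pfkfb4, the testis-type isozyme, was also lower, at 4.55 ± 0.396 CPM in LLC1, against 8.32 ± 0.477 CPM in MLE12 (log2 fold change -0.87 ± 0.10). Pfkfb1, the liver-type isozyme, was the exception, with 5.35 ± 0.564 CPM in LLC1, against 2.62 ± 0.261 CPM in MLE12 (log2 fold change 1.03 ± 0.12). None of the 4 passed the test against 2-fold. Pfkfb2 shares 1262 exonic bases with Gm29427 and 23.9% of its 100-base stretches with transcripts of other genes, so that its counts are uncertain. Pfkfb1 shares 123 exonic bases with Apex2 on the opposite strand. Apex2 had 11499 counts over all libraries, against 1807 for Pfkfb1. Where the counting strand is not stated, the counts of Pfkfb1 are uncertain too.

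In the lower chain the main isozyme of each step was higher in LLC1 by log2 fold changes of 0.80 to 1.60. Aldoa, which cleaves fructose 1,6-bisphosphate, had 685.5, 684.1, 712.5 and 719.0 CPM in LLC1, against 350.8, 324.5, 345.0 and 321.0 CPM in MLE12. Tpi1, which interconverts the triose phosphates, had 736.9, 717.3, 774.5 and 766.1 CPM in LLC1, against 359.3, 358.7, 374.4 and 356.1 CPM in MLE12. Neither gene overlapped between the lines, and the log2 fold changes were 1.06 ± 0.04 for Aldoa (adjusted p = 2.0e-14) and 1.05 ± 0.04 for Tpi1 (adjusted p = 1.3e-14). Aldoc, the brain-type aldolase, went the other way at a far lower level, with 3.05 ± 0.623 CPM in LLC1, against 8.61 ± 0.812 CPM in MLE12 (log2 fold change -1.49 ± 0.13, past 2-fold). It held 0.366 ± 0.070% of the aldolase transcripts per kilobase in LLC1 and 2.12 ± 0.166% in MLE12, or 0.235% in LLC1 and 1.37% in MLE12 with the principal transcript length.

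Gapdh, which oxidises glyceraldehyde 3-phosphate and is often used as a reference transcript (chr6:125161715-125166467), had 799.5, 805.1, 867.2 and 847.5 CPM in LLC1, against 277.9, 266.9, 288.7 and 261.4 CPM in MLE12. Pgk1, the first step of the chain to yield ATP, had 277.7, 273.3, 272.8 and 289.9 CPM in LLC1, against 131.8, 136.1, 141.0 and 138.1 CPM in MLE12. Both were separated without overlap, with log2 fold changes of 1.60 ± 0.05 for Gapdh (adjusted p = 7.0e-17) and 1.03 ± 0.04 for Pgk1 (adjusted p = 1.4e-14). Pgam1, the main phosphoglycerate mutase, had 501.8, 481.9, 506.7 and 483.9 CPM in LLC1, against 273.2, 272.0, 287.9 and 298.2 CPM in MLE12. The log2 fold change of Pgam1 was 0.80 ± 0.04 (adjusted p = 1.4e-12), below 2-fold and again without overlap. The muscle-type Pgam2 was at 1.69 ± 0.181 CPM in LLC1, against 0.982 ± 0.063 CPM in MLE12 (log2 fold change 0.78 ± 0.18), so that the mutase kept a like make-up, with Pgam1 at 99.3 ± 0.078% in LLC1 and 99.3 ± 0.034% in MLE12.

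Enolase, which makes phosphoenolpyruvate, combined a higher ubiquitous isozyme with a lower muscle isozyme. Eno1 (chr4:150236721-150248879) had 971.6, 981.3, 1095 and 1026 CPM in LLC1, against 411.1, 403.2, 426.0 and 413.7 CPM in MLE12. Eno2, the neuronal isozyme, had 30.2, 29.6, 28.4 and 28.2 CPM in LLC1, against 7.93, 7.04, 7.55 and 6.66 CPM in MLE12. Both were higher in every LLC1 library, with log2 fold changes of 1.30 ± 0.05 for Eno1 (adjusted p = 1.8e-15) and 1.99 ± 0.07 for Eno2 (adjusted p = 1.2e-15). Eno3, the muscle isozyme (chr11:70657202-70662513), had 13.6, 13.4, 14.5 and 16.1 CPM in LLC1, against 56.9, 51.9, 54.0 and 52.4 CPM in MLE12. Every LLC1 library was below every MLE12 library, and the log2 fold change was -1.90 ± 0.06 (adjusted p = 4.8e-16). Per kilobase, Eno3 made up 4.06 ± 0.292% of enolase transcripts in LLC1 and 28.3 ± 0.839% in MLE12. With the principal transcript length these shares of Eno3 were 1.76% in LLC1 and 14.3% in MLE12, and with the copies of Eno1 added 3.88% in LLC1 and 21.9% in MLE12, and Eno1 led in both lines each time.

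Pyruvate kinase and lactate dehydrogenase had the highest transcript levels of the pathway. Pkm, whose alternative exons give the M1 and M2 enzymes that counts per gene cannot tell apart (chr9:59656368-59679375), had 3829, 3873, 4249 and 4208 CPM in LLC1, against 1828, 1835, 1835 and 1695 CPM in MLE12. Ldha, the subunit that favours lactate formation (chr7:46841475-46855627), had 1549, 1547, 1730 and 1652 CPM in LLC1, against 626.6, 614.1, 633.7 and 614.9 CPM in MLE12. Neither overlapped, and the log2 fold changes were 1.17 ± 0.05 for Pkm (adjusted p = 3.0e-14) and 1.38 ± 0.05 for Ldha (adjusted p = 6.8e-16), both past 2-fold. Per kilobase Pkm ranked 22nd among all genes tested in LLC1 and 31st in MLE12, and Ldha 68th in LLC1 and 170th in MLE12. Ldhb, the subunit that favours pyruvate formation and is prominent in heart, was low in each line, at 2.07 ± 0.126 CPM in LLC1, against 1.17 ± 0.103 CPM in MLE12 (log2 fold change 0.82 ± 0.16). Ldha thus made up 99.8 ± 0.020% of the dehydrogenase transcripts per kilobase in LLC1 and 99.6 ± 0.033% in MLE12.

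Lactate leaves the cell with a proton through monocarboxylate transporters. Slc16a1, the widely expressed transporter MCT1, had 282.0, 272.4, 293.0 and 289.0 CPM in LLC1, against 163.4, 171.2, 170.3 and 178.5 CPM in MLE12. Slc16a3, the low-affinity exporter MCT4 of glycolytic tissues, had 24.5, 27.0, 26.9 and 26.5 CPM in LLC1, against 5.76, 5.95, 5.94 and 5.34 CPM in MLE12. The lines were apart for each gene, with log2 fold changes of 0.73 ± 0.04 for Slc16a1 (adjusted p = 4.7e-12) and 2.19 ± 0.07 for Slc16a3 (adjusted p = 2.8e-16). Per kilobase Slc16a3 was still the minor transporter, at 7.13 ± 0.358% of the summed level in LLC1 and 2.73 ± 0.199% in MLE12. The 2 chaperones that bring such transporters to the membrane differed in opposite directions: Bsg, the partner of MCT1 and MCT4, had a log2 fold change of -0.53 ± 0.04 and Emb 1.95 ± 0.05.

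**Figure D3:**
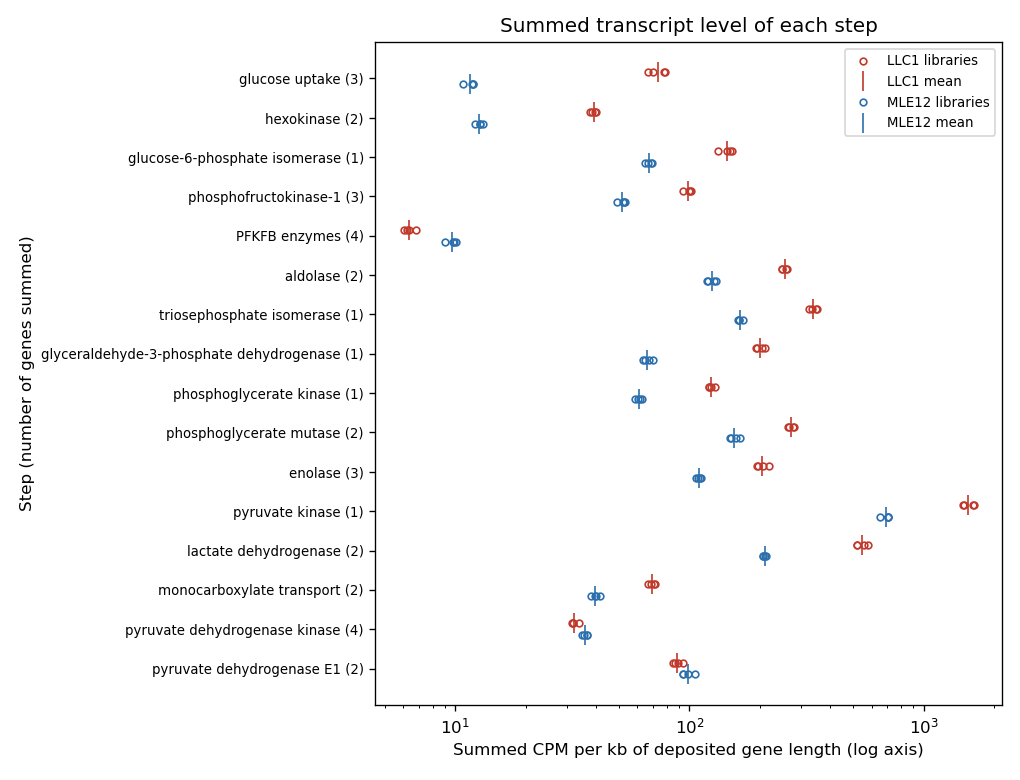
Summed transcript level of each step in each library, in CPM per kilobase of deposited gene length on a log axis; circles are libraries, bars are line means, LLC1 is red and drawn above MLE12 in blue, and the number of genes summed is in brackets. LLC1 lies above MLE12 in 13 steps, by ratios of 1.74 to 6.32, and below it for the PFKFB enzymes, pyruvate dehydrogenase E1 and, with this length but not with the principal transcript length (ratio 1.01) or in plain CPM (1.70), the pyruvate dehydrogenase kinases.

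The kinases that inactivate pyruvate dehydrogenase differed between the lines in which isozyme led. Pdk1 (chr2:71873224-71903858), known in many cells as a target of hypoxia-inducible factor, had 157.3, 159.9, 158.7 and 172.7 CPM in LLC1, against 19.3, 21.2, 20.9 and 21.3 CPM in MLE12. The log2 fold change was 2.97 ± 0.05 (adjusted p = 1.9e-20), with no overlap. Pdk2, the widely expressed isozyme (chr11:95026258-95041354), had 1.02, 0.935, 0.785 and 1.08 CPM in LLC1, against 19.6, 18.0, 18.2 and 17.8 CPM in MLE12. Pdk4, the isozyme induced by fasting and fatty acids (chr6:5483351-5496309), had 0.092, 0.168, 0.124 and 0.209 CPM in LLC1, against 11.9, 12.5, 13.5 and 15.4 CPM in MLE12. The log2 fold changes were -4.26 ± 0.10 for Pdk2 (adjusted p = 5.0e-18) and -6.43 ± 0.17 for Pdk4 (adjusted p = 2.8e-17), the largest negative ones of the 34 genes. Pdk2 had 189 counts over the LLC1 libraries, against 5191 over the MLE12 libraries. Pdk4 had 30 counts over the LLC1 libraries, against 3693 over the MLE12 libraries. Pdk3 had 27.7, 28.2, 28.5 and 28.9 CPM in LLC1, against 58.5, 60.2, 62.1 and 60.8 CPM in MLE12. It was lower in each LLC1 library, by a log2 fold change of -1.09 ± 0.05 that passed the 2-fold test (adjusted p against no change = 2.5e-14).

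Although Pdk1, Pdk2 and Pdk4 differed past 2-fold under every edgeR alternative, and Pdk3 under most of them, the sum of the 4 kinase genes differed by less. The summed kinase level was 32.3 ± 1.11 CPM per kilobase in LLC1 and 35.9 ± 0.810 CPM per kilobase in MLE12, a ratio of 0.900. The direction of this sum depends on the length used. The ratio was 1.01 with the principal transcript length and 1.70 in plain CPM without a length. Per deposited kilobase, Pdk1 made up 64.6 ± 0.607% of the sum in LLC1 and 7.41 ± 0.241% in MLE12, and Pdk3 34.3 ± 0.712% in LLC1 and 65.8 ± 0.634% in MLE12. Pdk2 held 0.936 ± 0.112% in LLC1 and 16.2 ± 1.03% in MLE12, and Pdk4 0.130 ± 0.041% in LLC1 and 10.6 ± 1.03% in MLE12. The ratio of Pdk1 to Pdk3 per kilobase was 1.87, 1.87, 1.83 and 1.97 in the LLC1 libraries, against 0.109, 0.116, 0.110 and 0.115 in the MLE12 libraries.

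**Figure D4:**
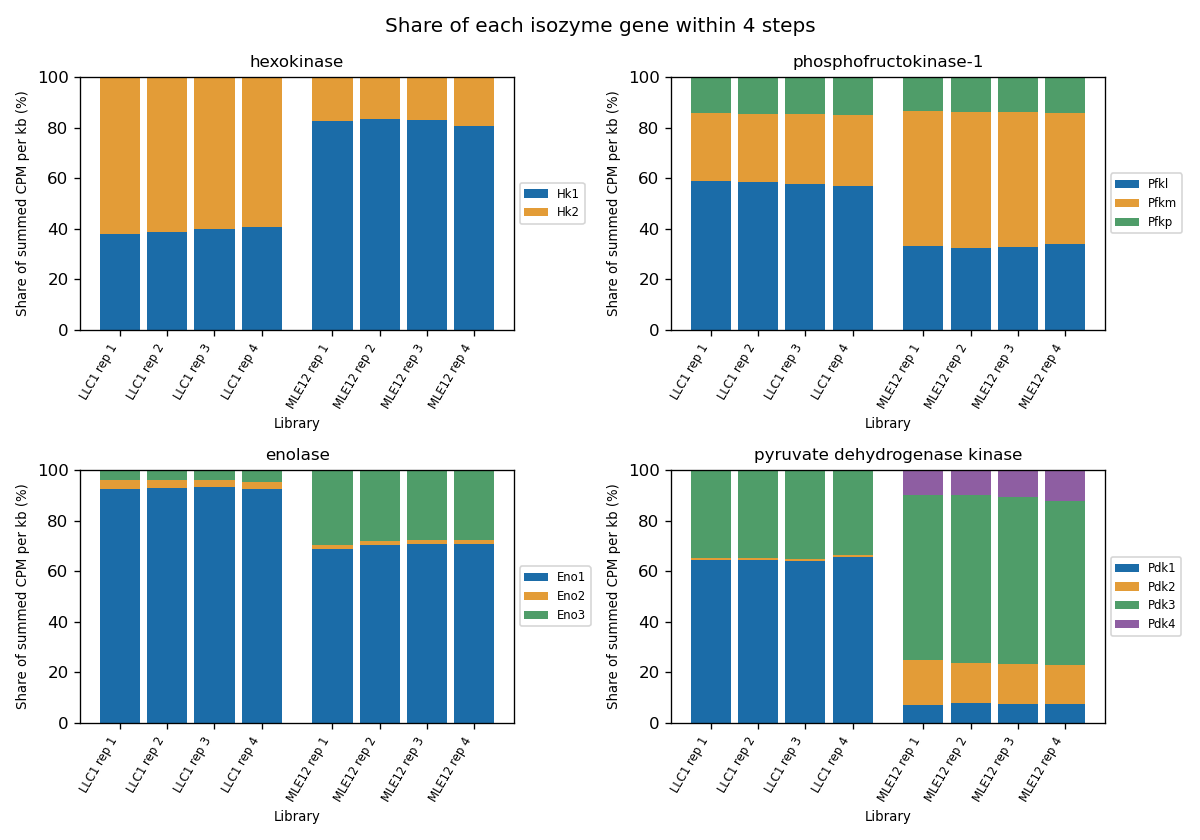
Share of each isozyme gene in the summed CPM per kilobase of its step, in percent, for hexokinase, phosphofructokinase-1, enolase and pyruvate dehydrogenase kinase; each bar is a library, with the 4 LLC1 libraries at the left and the 4 MLE12 libraries at the right. Hk2 takes 60.6% in LLC1 and 17.6% in MLE12 on average, Pdk1 64.6% in LLC1 and 7.41% in MLE12, and the bars of a line differ little among themselves.

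The E1 subunits of pyruvate dehydrogenase itself were close in level. Pdhb, the beta subunit, had 92.7, 89.3, 96.3 and 84.8 CPM in LLC1, against 91.4, 89.6, 92.1 and 102.8 CPM in MLE12. The lines overlapped, the log2 fold change being -0.05 ± 0.05 (adjusted p = 0.382). Pdha1, the X-linked alpha subunit, was at 103.4 ± 3.74 CPM in LLC1, against 130.6 ± 6.89 CPM in MLE12 (log2 fold change -0.34 ± 0.05, adjusted p = 1.7e-06), and it shares 603 exonic bases with Map3k15. The ratio of Ldha to Pdha1 per kilobase of deposited length was 19.2, 19.4, 20.1 and 19.6 in the LLC1 libraries, against 6.40, 6.05, 5.86 and 5.61 in the MLE12 libraries. That of Ldha to Pdhb was 8.32, 8.62, 8.95 and 9.70 in LLC1, against 3.42, 3.41, 3.43 and 2.98 in MLE12. Neither subunit stands for the whole complex. Among its other genes Dld (log2 fold change 1.53 ± 0.06) and Dlat (0.63 ± 0.04) were higher in LLC1, and Pdhx (-0.50 ± 0.06) was lower. These are RNA levels, and neither enzyme activity nor flux was measured.

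Several of these genes have processed pseudogenes or retrocopies, intronless copies of their messenger RNA inserted elsewhere in the genome, to which reads can be assigned. By alignment or by name 341 entries of the table resembled 12 of the 34 genes, 295 of them Gapdh. For most genes the copies took a like small share in each line, such as 10.8 ± 0.766% of the counts of Pgam1 in LLC1 and 11.3 ± 1.23% in MLE12. Gapdh and Eno1 were different. The Gapdh copies together held 3.20 ± 0.309% of the Gapdh counts in LLC1 and 33.8 ± 2.31% in MLE12, and the Eno1 copies 5.13 ± 0.444% of the Eno1 counts in LLC1 and 41.7 ± 0.580% in MLE12.

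In MLE12 1 copy of Gapdh and 2 copies of Eno1 held most of these counts. Gm13394, which is 99.9% identical to Gapdh over its aligned length and lies on chromosome 2, had 91 counts over the LLC1 libraries and 22657 over the MLE12 libraries, a log2 fold change of -7.43 ± 0.09 (edgeR, adjusted p = 2.9e-22). The Gapdh copies together summed to 25.4 to 29.1 CPM in the LLC1 libraries, of which Gm13394 was a small part, against 85.2 to 100.2 CPM in the MLE12 libraries. The Eno1 copy Eno1b had 8362 counts over the LLC1 libraries, against 29859 over the MLE12 libraries (log2 fold change -1.32 ± 0.05). The Eno1 copy Gm4735 on chromosome 2, 99.6% identical over its aligned length, had 1769 counts over the LLC1 libraries, against 18539 over the MLE12 libraries (log2 fold change -2.88 ± 0.05). These copies were lower in LLC1 while Gapdh and Eno1 were higher. With the copies added, the log2 ratio of mean CPM was 1.23 for Gapdh, against 1.60 for the gene alone, and 0.87 for Eno1, against 1.30 for the gene alone. Both stayed above 0, and Eno1 then lay under a 2-fold ratio. Of the 100-base stretches of their transcripts, 78.0% of Gapdh, 67.0% of Pgk1, 59.0% of Eno1 and 39.7% of Pgam1 also occur in transcripts of other genes, so that the split of reads between gene and copy is uncertain, and how the authors treated reads with several alignments is not given in the sources used here. For 23 of the 34 genes, among them Slc2a1, Hk2, Pfkl, Eno3 and all 4 kinase genes, no stretch of the principal transcript was shared on the same strand. The opposite strand was not compared. Slc2a1 shares 105 exonic bases with the antisense gene Gm12868, which had 3901 counts over all libraries. Hk1, Pfkp, Pfkfb1 and Pdha1 are also among the 23, despite the exonic bases that they share with genes on the opposite strand.

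**Figure D5:**
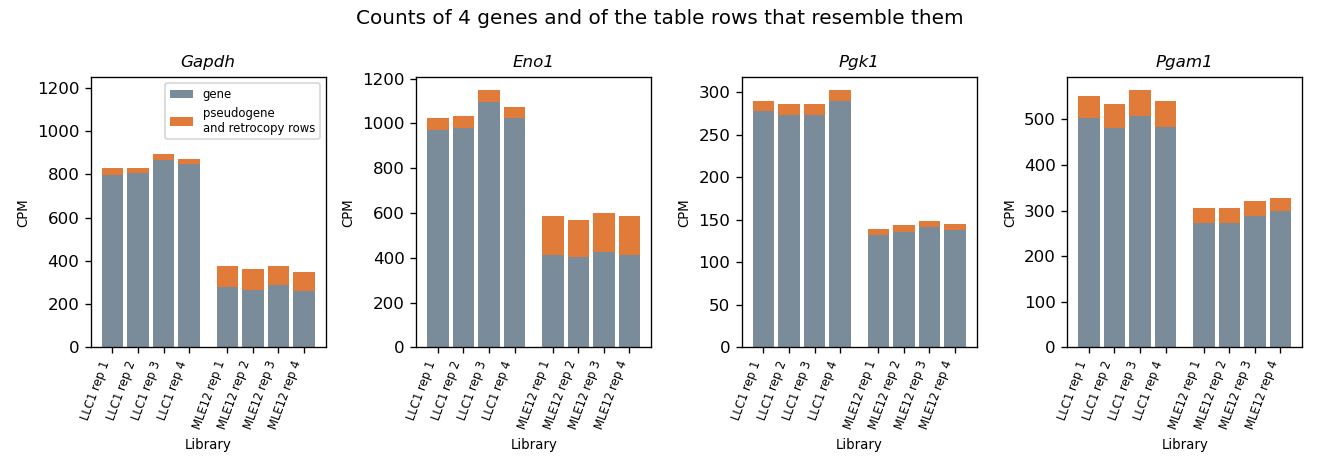
CPM of Gapdh, Eno1, Pgk1 and Pgam1 (grey) with the summed CPM of the table entries that resemble each gene stacked on top (orange); each bar is a library, LLC1 at the left and MLE12 at the right of each panel, and the y axes start at 0. The orange part is large for Gapdh and Eno1 in MLE12 (33.8 and 41.7% of the gene's own counts), small in LLC1 (3.20 and 5.13%), and alike in both lines for Pgk1 and Pgam1.

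Among replicates the 34 genes varied about as much as others of like level. For the 23 with at least 10 CPM in both lines the median coefficient of variation was 4.58% in LLC1 and 3.84% in MLE12, and for all 8678 such genes 4.6% in LLC1 and 4.76% in MLE12. Replicate 1 was the lowest LLC1 library for 11 of the 22 genes that were higher in LLC1, and replicate 4 the lowest MLE12 library for 13 of them. By position, 7 of the genes lie on chromosome 6 and 6 of these were higher, on a chromosome where 45.1% of all genes tested were higher, with Eno2, Tpi1 and Gapdh inside 406 kb. Of the 6 on chromosome 11, Slc16a3 and Pgam2 were higher and Slc2a4, Aldoc, Eno3 and Pdk2 lower, on a chromosome where 48.8% of all genes tested were lower.

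Neighbouring pathways held called genes of both directions, where 40.7% of all genes tested were higher and 40.9% lower in LLC1. The same shares stand beside the counts of every list that follows. Of the 12 pentose phosphate genes 7 were higher and 5 lower in LLC1 (median log2 fold change 0.32), led by Tkt at 1.16 ± 0.04, Pgd at 1.01 ± 0.04 and Rpia at 0.69 ± 0.05 and, in the other direction, by Prps2 at -1.33 ± 0.05, H6pd at -1.20 ± 0.05 and Taldo1 at -0.44 ± 0.05. Of 16 glycogen genes tested 6 were higher, 7 lower and 3 not called (median 0.05). Gys1, the glycogen synthase, was at 1.55 ± 0.05, the branching enzyme Gbe1 at 1.40 ± 0.06 and Pgm2 at 0.83 ± 0.06, against Pgm2l1 at -1.61 ± 0.09, Ugp2 at -1.05 ± 0.06 and Gsk3b at -0.63 ± 0.04. In the hexosamine branch 2 of 7 genes were higher, 3 lower and 2 not called (median -0.08), with Ogt at 0.20 ± 0.05, Mgea5 at 0.19 ± 0.04, Gnpnat1 at -0.28 ± 0.07 and Gfpt1 at -0.20 ± 0.04.

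Of 8 gluconeogenic genes listed only 4 passed the filter, of which 3 were higher and 1 lower in LLC1. Pck1, Fbp1 and G6pc had 0 counts in both lines, and Fbp2 had 1 count in LLC1 and 0 in MLE12. G6pc3, the widely expressed glucose-6-phosphatase, had 43.1, 39.6, 43.5 and 42.7 CPM in LLC1, against 1.20, 0.809, 1.01 and 1.04 CPM in MLE12. Its log2 fold change was 5.37 ± 0.09 (adjusted p = 2.1e-20), with no overlap. The mitochondrial carboxykinase Pck2 followed at 1.77 ± 0.04 and the transporter Slc37a4 at 0.76 ± 0.07, while the pyruvate carboxylase Pcx was at -1.53 ± 0.08. In the shuttles that carry reducing equivalents into mitochondria 4 of 10 genes were higher, 4 lower and 2 not called. The cytosolic glycerol 3-phosphate dehydrogenase Gpd1 was at -4.45 ± 0.09 and Gpd1l at -2.07 ± 0.06, and their mitochondrial counterpart Gpd2 was at 1.33 ± 0.04. Got1 was at 1.38 ± 0.05 and Slc25a11 at 0.34 ± 0.05, and Slc25a12 at -0.70 ± 0.05.

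Of 7 further isozymes and related enzymes tested, 3 were higher, 3 lower and 1 not called. The ADP-dependent glucokinase Adpgk was at 0.98 ± 0.05 and Ldhd at 1.33 ± 0.10, and Bpgm, which makes 2,3-bisphosphoglycerate, at -2.01 ± 0.06. Among 8 other glucose and fructose transporters 5 were higher and 3 lower, of which Slc5a2 at 1.45 ± 0.10 and Slc2a8 at -0.46 ± 0.06 reached 10 CPM. Of 10 genes for pyruvate entry and the rest of the dehydrogenase complex 5 were higher, 4 lower and 1 not called, with Dld at 1.53 ± 0.06, the phosphatase Pdp1 at 0.73 ± 0.06 and Dlat at 0.63 ± 0.04, against Pdpr at -1.18 ± 0.06, Mpc2 at -0.54 ± 0.06 and Pdhx at -0.50 ± 0.06. Of 8 further monocarboxylate transporters and chaperones 2 were higher, 3 lower and 3 not called. Of 11 regulators 5 were higher, 5 lower and 1 not called. Myc had a log2 fold change of 3.02 ± 0.04, the glucose-responsive arrestin Txnip, which restrains uptake, 2.75 ± 0.06, and Hif1a 1.74 ± 0.04. Akt2 was at -1.04 ± 0.04, Mlx, the partner of the carbohydrate-response factors, at -0.82 ± 0.05, and Tigar, a fructose 2,6-bisphosphatase, at -0.77 ± 0.05.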

How the data were processed

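Messenger RNA of LLC1 and MLE12 cells (4 libraries each) was read as paired ends of 100 nt from fragments of 250 to 300 bp, per the labels' protocols. The authors deposited raw counts per gene; CASAVA, TopHat2, featureCounts, edgeR and build mm10 are named in the submitters' processing notes, and versions, annotation release, strand setting and treatment of reads with several alignments are not given in the sources used here. In every library more genes had 2 counts than 1, as when both mates are counted.

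The counts were fitted in edgeR 4.0.16 (R 4.3.3): filterByExpr, TMM (factors 0.924 to 1.04), glmQLFit with robust estimation, glmQLFTest, and glmTreat against a fold change of 2, without covariates. P-values carry the Benjamini-Hochberg adjustment over all 18546 genes tested, with calls under 0.05. CPM use scaled library sizes. Levels per kilobase use the length in the deposited table; summed step levels, shares and ratios have no test. Alternatives were DESeq2 1.42.0, limma-voom (limma 3.58.1), other scalings and filters, leaving out the 20 genes with most counts, leaving out each library, and the replicate number as a block; the transcript length was added after seeing the data. Copies of a gene were found with blastn 2.17.0 (at least 80% identity over at least 50% of the entry) or by name. The fit was tested on simulated counts.

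The members and the context lists were chosen with earlier results of these data known. Values per library are given for members called with a log2 fold change of at least 1 in size with 10 CPM or more in the higher line, and for the leading gene of each step; from each context list of pathway genes, up to 3 called genes per direction of at least 10 CPM are named. The copies Gm13394, Eno1b and Gm4735 were named after their counts were seen.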

Additional observations from a re-analysis of the deposited data

Results flagged for a closer look

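In each line, each of the 34 genes was examined for a library that stood apart from the other 3, by the gap to its nearest neighbour as a share of the range. In 4 of 68 such groups the gap passed the 95% limit, where chance gives about 1 in 20. MLE12 replicate 4 was low for 3 genes: Slc2a1 was at 29.7 CPM there and at 32.4 to 32.8 CPM in the other MLE12 libraries, Pfkm at 75.2 CPM and at 82.5 to 83.8 CPM in the others, and Pkm at 1695 CPM and at 1828 to 1835 CPM in the others. LLC1 replicate 4 was high for Pdk1, at 172.7 CPM against 157.3 to 159.9 CPM in the other LLC1 libraries. MLE12 replicate 4 had the lowest total of its line, 48.6 M counts, and its part in these values was not tested.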

How the results depend on the processing

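Under all 17 alternatives 22 of the 34 genes were higher in LLC1, and the number lower was 10 except under 2 of them. It was 11 with library totals alone, where Pdhb was called at a log2 fold change of -0.15 (edgeR, adjusted p = 0.0136), and 9 with the filter of at least 1 CPM in 4 libraries, which removed Slc2a4. No direction was reversed among called genes, and the fold change that moved most was that of Slc2a4, by 0.23 on the log2 scale, without LLC1 replicate 4. Under the edgeR alternatives the number past 2-fold ran from 10 (library totals alone) to 16 (upper-quartile factors, and the filter of 1 CPM) higher and from 4 to 5 lower: the genes whose call moved were Gpi1, Pkm and Pdk3, which lost it, and Pfkp, Aldoa, Tpi1 and Pgk1, which gained it, all with log2 fold changes of 1.01 to 1.12 in size there. With the replicate number as a block 22 genes were higher and 10 lower, and 12 and 5 past 2-fold. Correlations of deviations from the line means ran from -0.20 to 0.16 for same-numbered libraries of the lines. For different-numbered libraries they ran from -0.17 to 0.23. With 4 same-numbered pairs these values cannot decide whether the numbers pair the samples. Leaving out 1 of 4 libraries cannot move their mean by over 1 SD, so by this measure it decides nothing on shares or step levels. Plain CPM moved 53 of 58 shares by over 1 SD, the principal transcript length 50 and added copies 7. The shares thus hold for the stated length. Depth limits Slc2a4 in both lines and Pdk4 in LLC1.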
